A study of Mus musculus with 4 samples.

Results

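The 10 genes described here are targets or parts of the NRF2 antioxidant pathway, named one by one and found by symbol among the 32285 genes of the count matrices, where each symbol matched 1 row. They are Nfe2l2, which encodes the transcription factor NRF2 itself, the glutathione synthesis genes Gclm and Gclc, the reductases Gsr and Txnrd1, the peroxide enzymes Srxn1 and Prdx1, the quinone reductase Nqo1, the haem oxygenase Hmox1 and the growth inhibitor Osgin1. They were named by pathway and not by a cut-off on measured values, but with earlier results of these data known.

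The study set an inhibitor of stearoyl-CoA desaturase (labelled SCDi), the enzyme that makes monounsaturated from saturated fatty acids, against vehicle in mice with breast tumours in the brain. The hosts were immune-competent C57BL/6 females, the tumours grew from intracranial EO771, a mammary carcinoma line of the same strain marked with GFP, and treatment lasted 14 days. The sources used here give no age, compound or dose. Each treatment is a pool of 3 mice. Cells negative for the dead-cell dye DAPI were sorted from each pool as a tumour fraction (GFP+, CD45-) and an immune fraction (CD45+, GFP-), and the 4 fractions became 4 droplet 3' RNA libraries: SCDi tumour, vehicle tumour, SCDi immune and vehicle immune. All tumours came from a transplanted line, so no group models spread from a primary tumour. With 1 library per group no test across animals was possible, and every interval below covers counting error only, not the spread between mice or sorts.

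NRF2 is held in the cytoplasm and sent for destruction by KEAP1 until oxidants or electrophiles modify KEAP1. It then enters the nucleus, pairs with a small MAF protein and binds antioxidant response elements, and BACH1 competes for the same elements, most clearly at Hmox1. The target genes make and recycle glutathione, reduce thioredoxin and peroxides, and break down haem. NRF2 is controlled mainly at the protein level, so its mRNA does not measure its activity.

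On the mm10 build 4 of the 10 members lie on chromosome 8: Gsr (chr8:33652523-33698163, plus strand), Hmox1 (chr8:75093621-75100589, plus), Nqo1 (chr8:107388225-107403206, minus) and Osgin1 (chr8:119434124-119446256, plus). Nfe2l2 (chr2:75675513-75704641, minus) and Srxn1 (chr2:152105516-152111376, plus) lie on chromosome 2, Gclm on chromosome 3 (chr3:122245557-122270732, plus), Prdx1 on 4 (chr4:116685544-116700822, plus), Gclc on 9 (chr9:77754535-77794485, plus) and Txnrd1 on 10 (chr10:82833951-82897712, plus). All 10 are protein-coding genes of GENCODE M21. The shared chromosome bears on the tumour values below.

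RefSeq (GRCm38.p6) gives a promoter entry for 7 of the 10 members, 9 entries in all; Gclc, Gsr and Hmox1 are named only. The 250 bases before the start were searched on both strands for TGACNNNGC, the core of the antioxidant response element, and for TGACTCA, the AP-1 type site that can overlap it. The first was found in 4 members (Nfe2l2, Gclm, Txnrd1 and Prdx1) against 10.2% of 32851 promoters of the same length, and the second in 3 members (Srxn1, Prdx1 and Osgin1) against 4.46%. Nqo1 held neither in this window. The 4 promoters below are a part of the 9 entries and each holds a match, so they do not stand for all. The entries of Nfe2l2, Nqo1 and Txnrd1 are not printed. Capitals mark the matches, which are descriptions of the letters and not bound sites. Gclm is chr3:122245307-122245556, Srxn1 chr2:152105274-152105523, Prdx1 chr4:116685349-116685598 and Osgin1 chr8:119436897-119437146, each on the plus strand. In Prdx1 the second stretch of capitals matches both motifs.
Gclm: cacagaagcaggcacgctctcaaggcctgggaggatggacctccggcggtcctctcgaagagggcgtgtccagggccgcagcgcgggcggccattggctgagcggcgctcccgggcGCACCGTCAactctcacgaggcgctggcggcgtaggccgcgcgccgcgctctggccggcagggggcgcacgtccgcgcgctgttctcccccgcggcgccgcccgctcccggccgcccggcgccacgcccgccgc
Srxn1: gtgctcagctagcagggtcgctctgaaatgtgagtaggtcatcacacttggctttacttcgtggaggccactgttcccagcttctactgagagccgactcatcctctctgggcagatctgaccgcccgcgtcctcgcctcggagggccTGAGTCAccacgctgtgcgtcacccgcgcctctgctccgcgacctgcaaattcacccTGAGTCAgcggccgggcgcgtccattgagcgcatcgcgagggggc
Prdx1: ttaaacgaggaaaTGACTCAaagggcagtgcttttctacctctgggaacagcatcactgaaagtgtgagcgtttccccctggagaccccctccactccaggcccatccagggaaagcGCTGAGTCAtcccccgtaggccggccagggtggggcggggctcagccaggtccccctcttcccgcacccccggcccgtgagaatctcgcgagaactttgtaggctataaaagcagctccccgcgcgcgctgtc
Osgin1: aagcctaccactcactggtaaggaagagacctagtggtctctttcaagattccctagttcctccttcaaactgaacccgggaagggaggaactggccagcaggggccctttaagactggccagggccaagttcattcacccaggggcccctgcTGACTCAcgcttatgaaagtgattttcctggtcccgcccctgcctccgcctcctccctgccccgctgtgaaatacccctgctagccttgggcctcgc

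The SCDi and vehicle tumour libraries held 329888529 and 307846497 UMIs (unique molecular identifiers, each standing for 1 captured RNA), and the SCDi and vehicle immune libraries 141068797 and 135851178. Any pair of libraries shared 9 to 23 barcodes, at most 0.314% of a library. Krt8, an epithelial keratin, had a UMI in 96.4% of SCDi and 98.0% of vehicle cells of the tumour sort and in 3.27% of SCDi and 2.10% of vehicle cells of the immune sort, and Ptprc (CD45) was at 0 of 8262 SCDi and 6 of 7009 vehicle cells of the tumour sort. Krt18, which pairs with Krt8, had a UMI in only 17.4% of SCDi and 16.3% of vehicle cells of the tumour sort. Tumour cells were taken as cells with Krt8, without Ptprc and with fewer than 4 of 5 endothelial markers, which gave 7916 SCDi and 6812 vehicle cells. Leukocytes were gated by how many markers of a list they showed, and 10 types passed a floor of 50 cells and 500000 UMIs in each library. Macrophages, monocytes and the cells with markers of both, called monocyte-macrophages, are ranges along 1 continuum: 50.5% to 55.1% of their cells lay at a gate's edge. Values are CPM, the gene's UMIs scaled to 1e6 UMIs of the type in that library, and ratios are log2 of SCDi over vehicle.

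Summed over all tumour cells, the glutathione synthesis genes Gclm and Gclc had the highest ratios among the members at 5 CPM. The others lay from -0.10 (Srxn1) to 0.15 (Hmox1). Of the 9 members at 5 CPM or more in either library, 6 were higher and 3 lower in SCDi, with a median log2 ratio of 0.06, against 41.8% of all 9478 such genes higher and a median of -0.04. Gclm alone passed 1.2-fold, higher in SCDi, where 5.81% of all genes did so and 10.7% were past 1.2-fold lower. Cells with a UMI of the proliferation genes Mki67 or Top2a made up 84.2% of SCDi and 76.5% of vehicle tumour cells, and Gclm was higher in them than in the others, with 44.8 CPM against 34.1 CPM in SCDi and 35.9 CPM against 28.6 CPM in vehicle. Its ratio was 0.32 in these cells and 0.25 in the others. Summed over all 10 members, SCDi tumour cells held 1021 CPM and vehicle tumour cells 951 CPM, a log2 ratio of 0.10 (95% interval 0.09 to 0.11).

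Nfe2l2 had 13587 UMIs, or 46.0 CPM, in SCDi tumour cells and 12454 UMIs, or 44.4 CPM, in vehicle tumour cells, a log2 ratio of 0.05 (0.02 to 0.09). Gclm, the modifier subunit that lowers the feedback inhibition of glutamate-cysteine ligase, had 13010 UMIs (44.0 CPM, Poisson interval 43.3 to 44.8) in SCDi and 9768 UMIs (34.8 CPM, 34.1 to 35.5) in vehicle tumour cells, a log2 ratio of 0.34 (0.30 to 0.38). Gclc, the catalytic subunit of the same enzyme and its rate-limiting part, had 19.1 CPM in SCDi and 16.3 CPM in vehicle tumour cells (0.23, 0.17 to 0.29). Both subunits were thus higher in SCDi, but only Gclm passed 1.2-fold. Gclc and the regulator's own mRNA, also slightly higher in SCDi, lay within it. After each cell was thinned to 2000 UMIs, Gclm was seen in 8.47% of SCDi (exact binomial interval 7.84% to 9.14%) and 6.68% of vehicle tumour cells (6.08% to 7.32%), so more SCDi cells showed it at equal depth. Without thinning the median depth was 37010 UMIs in SCDi and 41894 UMIs in vehicle tumour cells.

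Gsr, which turns oxidised glutathione back into its reduced form, had 97.6 CPM in SCDi and 102 CPM in vehicle tumour cells (-0.06, -0.08 to -0.03). Txnrd1, which reduces cytosolic thioredoxin, had 76.2 CPM in SCDi and 72.9 CPM in vehicle tumour cells (0.06, 0.04 to 0.09). Neither reductase reached 1.2-fold. Srxn1, which repairs overoxidised peroxiredoxins, had 39.4 CPM in SCDi and 42.1 CPM in vehicle tumour cells (-0.10, -0.13 to -0.06), the lowest ratio among the 10. Prdx1, a thioredoxin-dependent peroxidase, had 657 CPM in SCDi and 601 CPM in vehicle tumour cells (0.13, 0.12 to 0.14). The repair enzyme and its substrate lay on opposite sides of equality, each by less than 1.2-fold.

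Hmox1, which opens the haem ring and frees iron, carbon monoxide and biliverdin, had 22.3 CPM in SCDi and 20.1 CPM in vehicle tumour cells (0.15, 0.10 to 0.20). Osgin1, an oxidative stress responsive growth inhibitor, had 16.9 CPM in SCDi and 16.9 CPM in vehicle tumour cells (-0.01, -0.06 to 0.05). Nqo1, the two-electron quinone reductase often used as the marker of this pathway, was scarce in this line: 589 UMIs (1.99 CPM) in SCDi and 460 UMIs (1.64 CPM) in vehicle tumour cells, with a UMI in 6.70% of SCDi and 6.31% of vehicle cells. Its log2 ratio was 0.28 (0.10 to 0.46), under the 5 CPM needed for a count. Nqo1 read little in these tumours at either treatment.

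**Figure D1:**
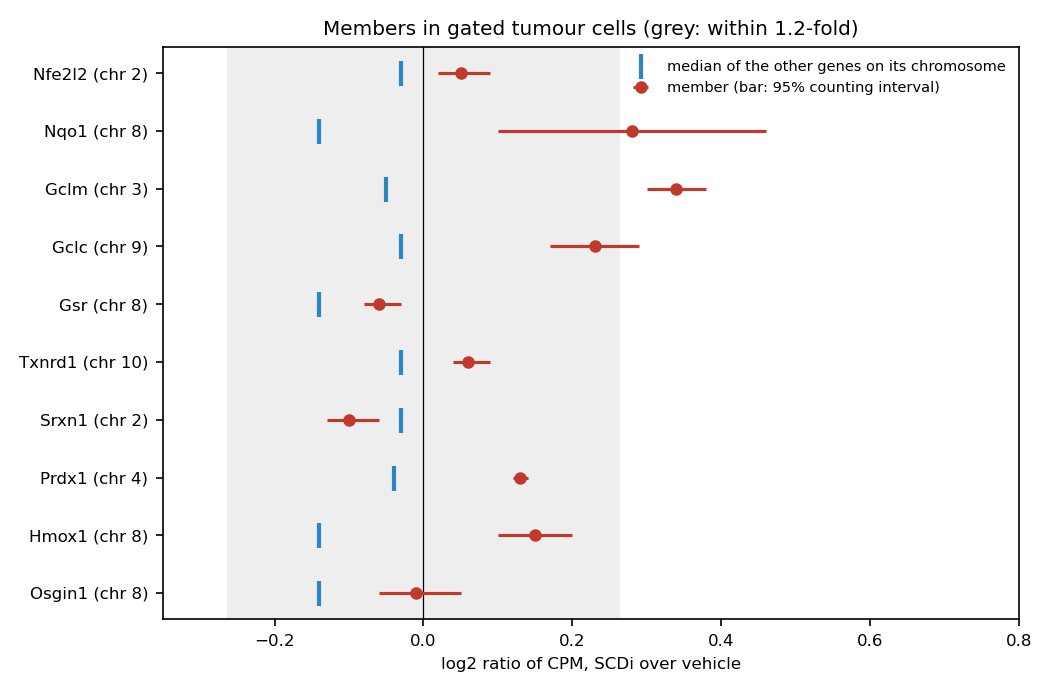
Each point is the log2 ratio of CPM, SCDi over vehicle, of 1 member in gated tumour cells (bar: exact 95% counting interval), and the blue tick is the median ratio of the other genes on its chromosome. Gclm at 0.34 lies outside the grey 1.2-fold band, Nqo1 at 0.28 also does but rests on under 5 CPM, and the ticks of the 4 chromosome 8 members stand at -0.14.

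The 4 members on chromosome 8 were measured against a chromosome that was lower as a whole in SCDi tumour cells. The median log2 ratio of its 531 genes was -0.14, and chromosome 8 took 4.93% of UMIs in SCDi and 5.30% in vehicle tumour cells, where the medians of the other chromosomes ranged from -0.07 to 0.02. Less that median, Hmox1 was at 0.29, Osgin1 at 0.13, Gsr at 0.08 and Nqo1 at 0.42. Less the medians of their own chromosomes, Gclm was at 0.39 and Gclc at 0.26, so by this measure Hmox1 stood above Gclc. Cells with a high share of chromosome 8 UMIs made up 40.2% of SCDi and 61.4% of vehicle tumour cells. Within cells of low and of high share, Gclm had ratios of 0.25 and 0.46 and Gsr of -0.07 and 0.03. The chromosome's part in the members' ratios was not tested further.

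Hmox1 and Osgin1 differed between tumour cells with many and with few UMIs of 8 hypoxia genes (Bnip3, Ndrg1, Car9, Vegfa, Egln3, Ankrd37, Pdk1 and Slc2a1). In cells above the pooled median of these genes, Hmox1 had 29.7 CPM in SCDi and 21.9 CPM in vehicle cells, a log2 ratio of 0.44 (0.37 to 0.51), and Osgin1 had 23.3 CPM in SCDi and 17.9 CPM in vehicle cells, a ratio of 0.38 (0.30 to 0.45). In cells at or under the median, Hmox1 had 17.9 CPM in SCDi and 16.2 CPM in vehicle cells (0.15, 0.06 to 0.24), and Osgin1 13.1 CPM in SCDi and 14.7 CPM in vehicle cells (-0.16, -0.26 to -0.07). The hypoxia-high cells made up 36.2% of SCDi and 66.0% of vehicle tumour cells, so the sum over all cells weights the 2 parts differently in the 2 libraries. Within each library both genes were higher in the hypoxia-high cells, Hmox1 by 0.73 in SCDi and 0.44 in vehicle and Osgin1 by 0.83 in SCDi and 0.29 in vehicle on the log2 scale.

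Gclm behaved otherwise: its ratio was 0.33 in hypoxia-high and 0.25 in hypoxia-low cells, and it was lower in the hypoxia-high cells of both libraries, by -0.11 in SCDi and -0.19 in vehicle. Nfe2l2 had ratios of 0.17 and 0.06 in the high and low cells, Gclc 0.11 and 0.22, and Txnrd1 0.15 and -0.08. In tumour cells without a UMI of the proliferation genes Mki67 or Top2a, Hmox1 had 29.8 CPM in SCDi and 22.0 CPM in vehicle cells (0.44, 0.29 to 0.58), Gclc a ratio of 0.41 (0.22 to 0.60) and Osgin1 0.29 (0.13 to 0.45). Those cells had a median of 9792 UMIs in SCDi and 29649 in vehicle, so they are not matched in depth, and the part of depth in these ratios was not tested.

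**Figure D2:**
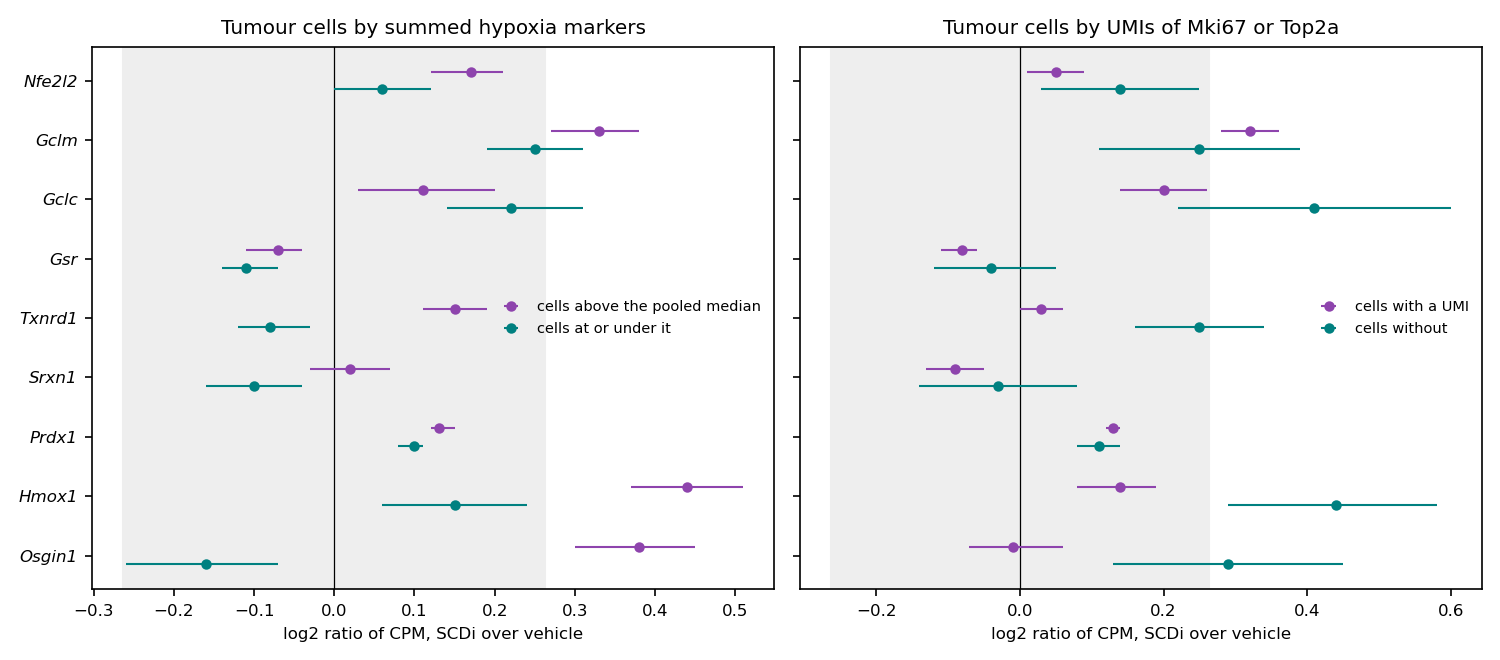
Log2 ratio of CPM, SCDi over vehicle, for 9 members in tumour cells split by summed hypoxia genes at the pooled median (left) and by UMIs of Mki67 or Top2a (right), with exact 95% counting intervals and the 1.2-fold band in grey. On the left, Hmox1 (0.44 against 0.15) and Osgin1 (0.38 against -0.16) separate the hypoxia-high from the hypoxia-low cells, while Gclm (0.33 against 0.25) lies close in both.

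Hmox1 UMIs varied more between tumour cells than those of the other members, and a few cells held many of them. After thinning to 5000 UMIs its variance over its mean was 2.30 in SCDi and 1.46 in vehicle tumour cells, where the other 9 members had 0.992 to 1.24 in SCDi and 1.02 to 1.38 in vehicle, and a pure counting process gives 1. A single SCDi cell held 272 Hmox1 UMIs and a single vehicle cell 175. The share of cells with any Hmox1 UMI at that depth was 8.54% in SCDi and 8.10% in vehicle. Most thinned Hmox1 UMIs, 68.1% in SCDi and 77.3% in vehicle, lay in cells with 1 of them. The top 5% of cells held 70.6% of them in SCDi and 61.3% in vehicle. For Osgin1 that share was no lower, at 70.9% in SCDi and 65.0% in vehicle. Cells with 3 or more thinned Hmox1 UMIs were 28 of 7092 in SCDi (0.395%, exact binomial interval 0.263% to 0.570%) and 8 of 6246 in vehicle (0.128%, 0.0553% to 0.252%), and they held 20.7% of the thinned Hmox1 UMIs in SCDi and 6.44% in vehicle.

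Several other members were high in those same rare cells, which Hmox1 alone had picked, a split chosen after its values were seen. Gclm had 207 CPM (Poisson interval 182 to 235) in the 28 SCDi cells and 139 CPM (103 to 182) in the 8 vehicle cells, against 43.0 CPM in the SCDi and 34.5 CPM in the vehicle cells without Hmox1. Srxn1 had 197 CPM (172 to 224) in the 28 SCDi and 84.3 CPM (57.3 to 120) in the 8 vehicle cells, against 38.5 CPM in the SCDi and 41.7 CPM in the vehicle cells without Hmox1. Both genes stood above their level in the cells without Hmox1, by the least for Srxn1 in vehicle. Gclm exceeded the mean of its library's tumour cells in 24 of the 28 SCDi and 6 of the 8 vehicle cells. Srxn1 did so in 22 of the SCDi and 5 of the vehicle cells. The share of other tumour cells above these means was not counted.

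Txnrd1 had 141 CPM in the 28 SCDi and 141 CPM in the 8 vehicle cells, against 76.2 CPM in the SCDi and 72.9 CPM in the vehicle cells without Hmox1, but 1 vehicle cell held 53.8% of its UMIs in that group. Nqo1 had 13 UMIs (11.1 CPM, 5.90 to 18.9) in the 28 SCDi and 2 UMIs (5.44 CPM, 0.659 to 19.7) in the 8 vehicle cells, against 1.89 CPM in the SCDi and 1.64 CPM in the vehicle cells without Hmox1. Osgin1 had 50.3 CPM in the 28 SCDi and 65.3 CPM in the 8 vehicle cells, against 16.5 CPM in the SCDi and 16.5 CPM in the vehicle cells without Hmox1. For Osgin1 1 cell held 25.4% of these UMIs in SCDi and 1 cell 33.3% in vehicle. Osgin1 exceeded the mean of its library's tumour cells in 17 of the 28 SCDi and 4 of the 8 vehicle cells. Txnrd1 did so in 15 of the SCDi and 4 of the vehicle cells, and Gsr in 16 and 4. Gsr had 109 CPM (91.0 to 130) in the 28 SCDi and 92.5 CPM (64.1 to 129) in the 8 vehicle cells, against 97.6 CPM in the SCDi and 102 CPM in the vehicle cells without Hmox1. Nfe2l2 had 50.3 CPM (38.3 to 64.8) in the 28 SCDi and 32.6 CPM (16.9 to 57.0) in the 8 vehicle cells, so the intervals of both included the level in cells without Hmox1 (Nfe2l2 45.4 CPM in SCDi and 44.1 CPM in vehicle). Gclc had 31.5 CPM (22.2 to 43.5) in the 28 SCDi and 10.9 CPM on 4 UMIs (2.97 to 27.9) in the 8 vehicle cells, against 19.1 CPM in the SCDi and 16.4 CPM in the vehicle cells without Hmox1. Prdx1 had 793 CPM (743 to 846) in the 28 SCDi and 876 CPM (783 to 977) in the 8 vehicle cells, against 654 CPM in the SCDi and 597 CPM in the vehicle cells without Hmox1, with 1 of the 8 cells holding 37.0% of its UMIs there. The macrophage gene C1qa was at 0 in the cells with 2 or more thinned Hmox1 UMIs of both libraries, and Krt8 stood at 1332 CPM in the 28 SCDi and 2400 CPM in the 8 vehicle cells.

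**Figure D3:**
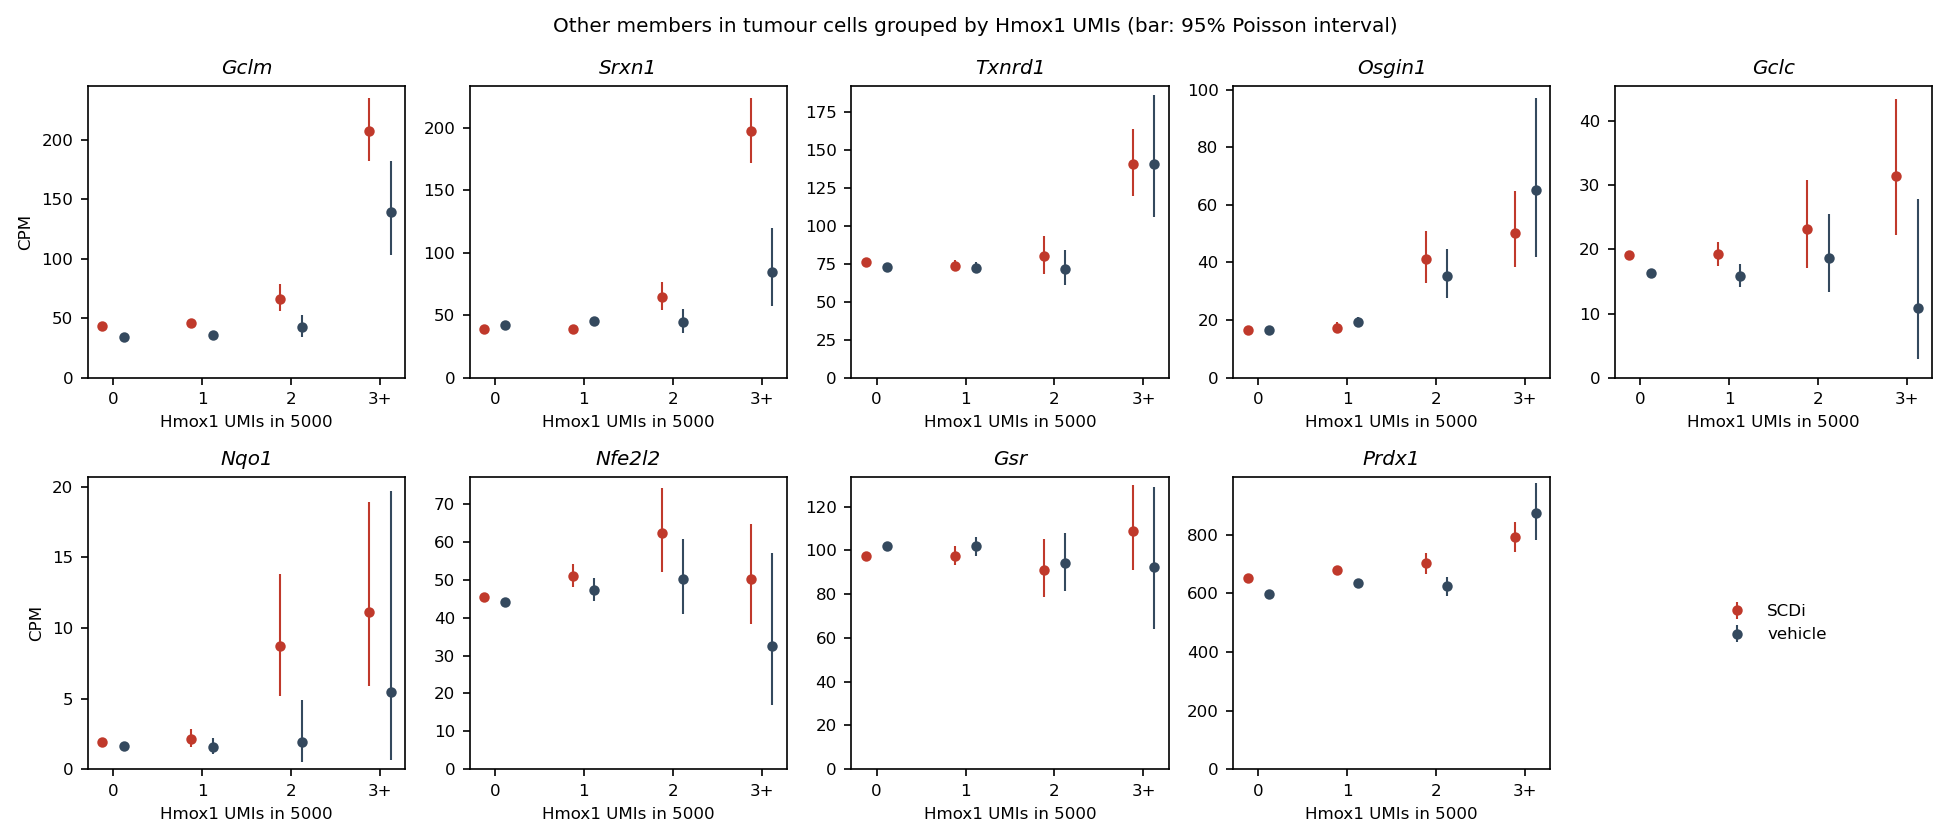
CPM of the 9 other members (vertical, linear, from 0, own scale in each panel) in SCDi and vehicle tumour cells grouped by their Hmox1 UMIs after thinning to 5000 UMIs (horizontal), with Poisson 95% intervals. As sums over cells, Gclm, Srxn1, Txnrd1 and Osgin1 are higher in the cells with 3 or more Hmox1 UMIs, and Gsr is not. Gclm is for instance at 207 CPM in SCDi and 139 CPM in vehicle. Fewer of these cells exceed their library's tumour mean for Txnrd1 and Osgin1 than for Gclm and Srxn1.

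Each member had its own order of cell types. Gsr was highest in neutrophils, with 1639 CPM (1470 to 1822) in 46 SCDi and 1313 CPM (1185 to 1452) in 63 vehicle cells, then in monocytes with 484 CPM in SCDi and 609 CPM in vehicle, and lowest in SCDi B cells at 18.6 CPM and in vehicle microglia at 40.1 CPM. Neutrophils also led for Nfe2l2 (554 CPM in SCDi and 522 CPM in vehicle), Txnrd1 (325 CPM in SCDi and 227 CPM in vehicle) and Osgin1 (95.6 CPM in SCDi and 107 CPM in vehicle), and microglia stood second for Nfe2l2 with 340 CPM in SCDi and 350 CPM in vehicle. Prdx1 and Hmox1 were highest in macrophages, and for Hmox1 the monocyte-macrophages came next, with overlapping intervals in SCDi (215 CPM in macrophages and 207 CPM in monocyte-macrophages) but not in vehicle (282 CPM in macrophages and 258 CPM in monocyte-macrophages).

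Gclm and Srxn1 were highest in tumour cells at both treatments: Gclm had 44.0 CPM in SCDi and 34.8 CPM in vehicle tumour cells, and 21.8 CPM in SCDi and 23.3 CPM in vehicle macrophages, the next type in both. Srxn1 had 39.4 CPM in SCDi and 42.1 CPM in vehicle tumour cells, and 17.6 CPM in SCDi and 20.2 CPM in vehicle macrophages, again the next. Gclc showed the least order, since B cells, microglia, migratory dendritic cells and T cells led in both libraries with intervals that overlapped their neighbours. Nqo1 was near 0 in leukocytes, with 11 UMIs in 1096 SCDi and 2 UMIs in 1143 vehicle macrophages, and 0 UMIs in both libraries in type 2 and plasmacytoid dendritic, NK and B cells. A count of 0 in a library still allows 3 UMIs, so Nqo1 was not detectable there at this depth. By Pearson's r of log2 levels over the 11 types in both libraries (22 levels, 9882 genes searched), the genes most like Hmox1 were Dmxl2 (0.967), Slc11a1 (0.967), Lrp1 (0.964) and Cndp2 (0.962). Those most like Nfe2l2 were Stard8 (0.940), Ndst2 (0.936), Stard9 (0.936) and Tns3 (0.928), and those most like Nqo1 were Map6 (0.944), Ppic (0.937), Actg2 (0.930) and Dnph1 (0.924). The types of 1 sort share a library, so these values only describe. The leukocyte levels of Nqo1 rest on at most 11 UMIs each, so its r values mainly contrast tumour cells with leukocytes.

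**Figure D4:**
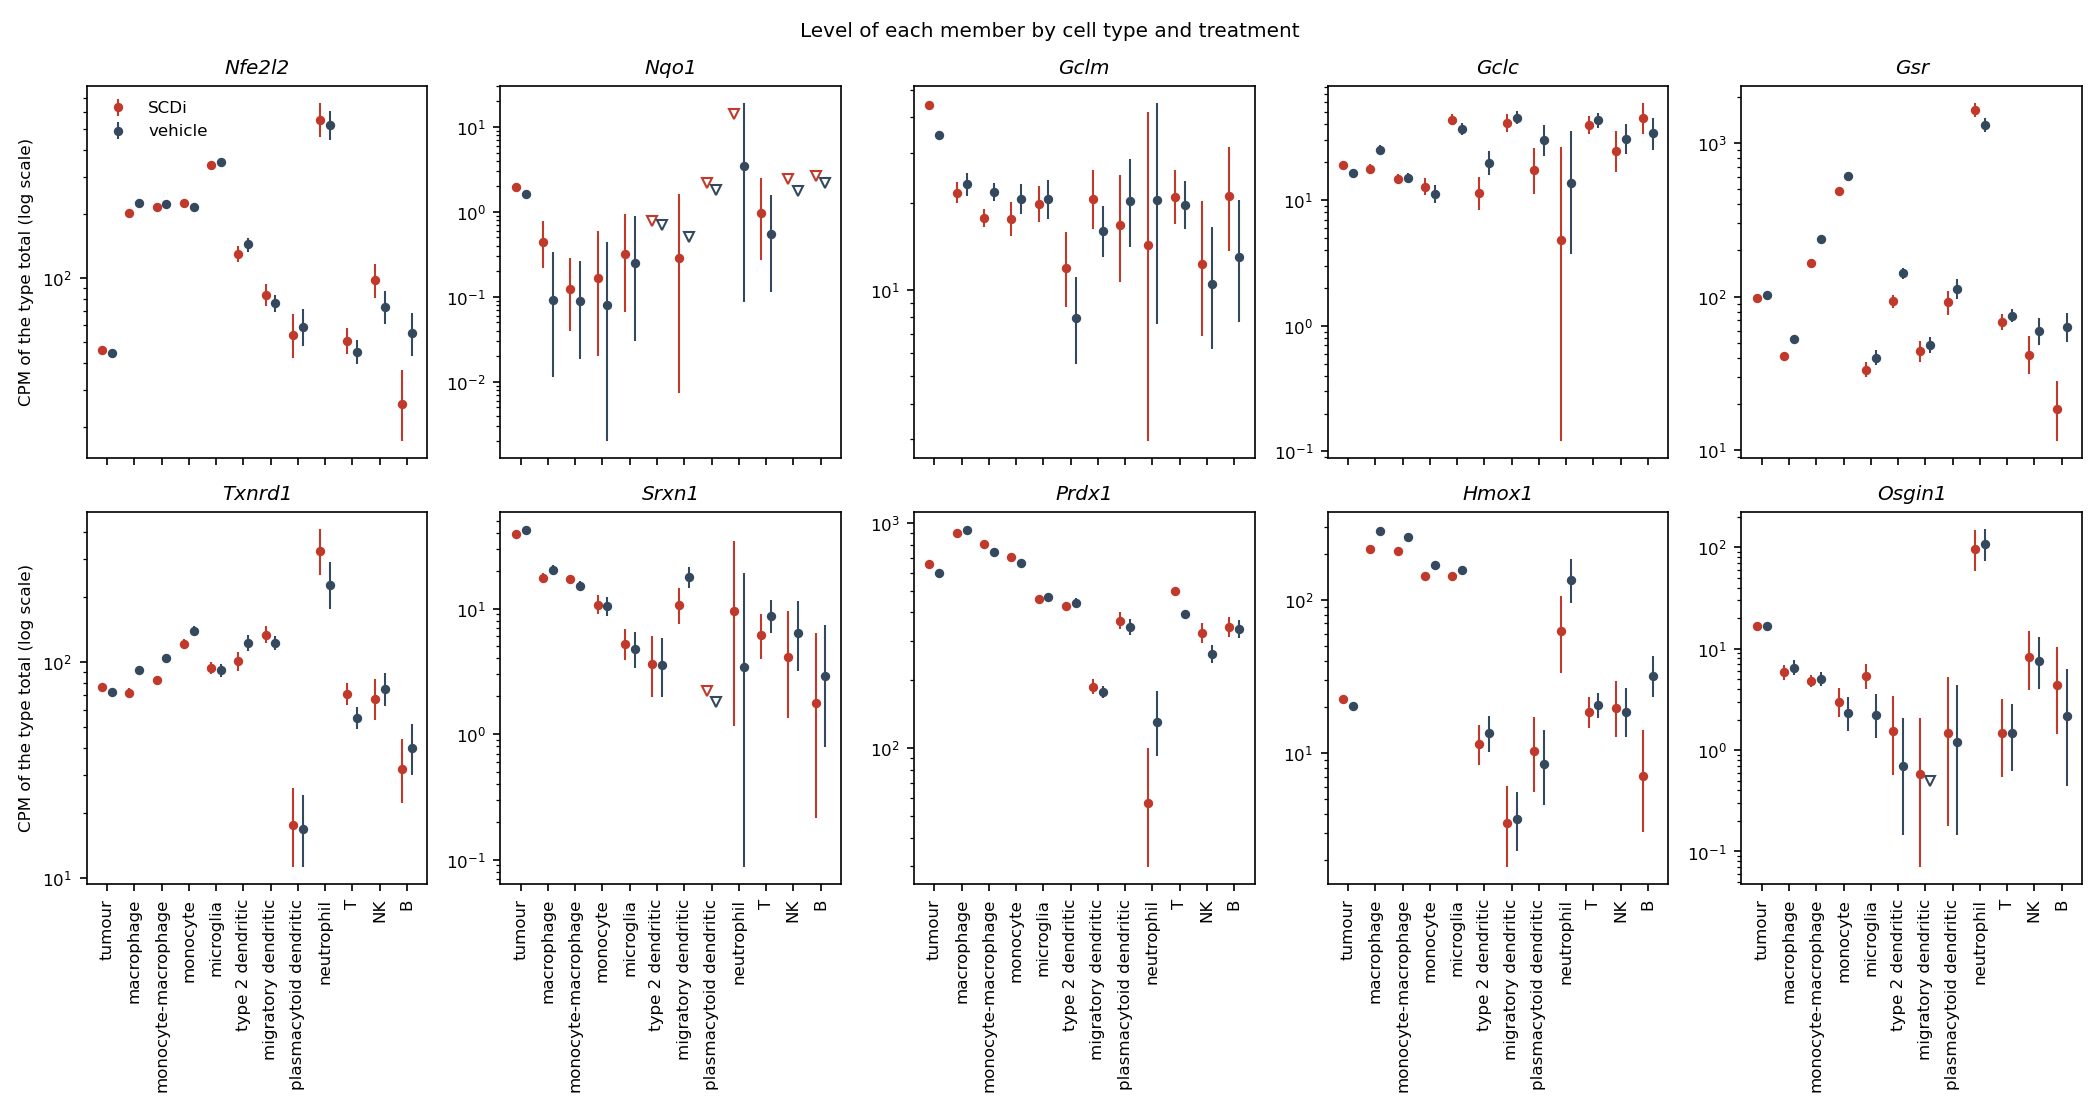
CPM of each member (vertical, log scale, own scale in each panel) in 12 cell types, SCDi left of vehicle, with exact Poisson 95% intervals; open triangles mark types with 0 UMIs at the limit of 3 counts. Neutrophils stand highest for Gsr, Nfe2l2, Txnrd1 and Osgin1, tumour cells for Gclm and Srxn1, and SCDi lies under vehicle for Gsr in each type but neutrophils.

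In leukocytes Gsr, the glutathione reductase, was lower in SCDi in all 10 types and past 1.2-fold in 7 of them. In these 7 types 12.2% to 33.6% of all genes were past 1.2-fold lower. Monocytes had 5821 UMIs, or 484 CPM, in SCDi and 7676 UMIs, or 609 CPM, in vehicle (-0.33, -0.38 to -0.28), and monocyte-macrophages 166 CPM in SCDi and 237 CPM in vehicle (-0.51, -0.56 to -0.47). Macrophages had 40.8 CPM in SCDi and 53.3 CPM in vehicle (-0.39, -0.51 to -0.26), and type 2 dendritic cells 93.4 CPM in SCDi and 142 CPM in vehicle (-0.60). The largest gap was in B cells, on 21 UMIs in SCDi and 88 in vehicle (-1.75, but -0.61 without doublet removal), and the smallest in T and migratory dendritic cells (-0.13 in both), whose intervals included 0. In NK cells, at 42.0 CPM in SCDi and 59.4 CPM in vehicle (-0.49), the ratio was -0.14 as a mean over cells. In plasmacytoid dendritic cells the ratio was -0.29, with an interval (-0.63 to 0.04) that included 0, and -0.14 without doublet removal. The 10 types come from the same 2 immune libraries, so they are not 10 independent results. In monocyte-macrophages 2.55% of all genes had a lower ratio than Gsr, in macrophages 7.57% and in monocytes 9.19%. The share was 23.8% in plasmacytoid and 37.9% in migratory dendritic cells.

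Macrophages and monocyte-macrophages were pooled and split by 3 gates, and Gsr was lower in SCDi on both sides of these 3. In cells with at least 2 of Folr2, Pf4, Cd163 and Lyve1, genes of resident macrophages, the ratio was -0.66, and outside them -0.51. In cells with at least 2 of Gpnmb, Apoc2 and Fabp5, genes of lipid-laden macrophages, it was -0.43 and outside -0.68. In cells with at least 2 of Spp1, Arg1 and Hilpda it was -0.51 and outside -0.56. Split by Ly6c2, a marker of classical monocytes, monocytes with a UMI of it gave -0.33 and monocyte-macrophages with it -0.55. The few cells without it did not all follow: in monocyte-macrophages with Ace or Treml4 (23 SCDi and 24 vehicle cells) Gsr was higher in SCDi, with 233 UMIs in SCDi and 184 in vehicle (0.53, 0.24 to 0.81), and so it was in those with none of the 3 (93 UMIs in SCDi and 78 in vehicle, 0.60, 0.15 to 1.05). In monocytes these ratios were -0.44 with Ace or Treml4 and 0.09 with none of the 3. Neutrophils, where Gsr was highest, had the higher level in SCDi (1639 CPM, against 1313 CPM in vehicle), with intervals that did not overlap, and too few cells for a ratio. The neutrophil markers in that gate summed to 130673 CPM in SCDi and 60667 CPM in vehicle, the monocyte markers to 698 CPM in SCDi and 2863 CPM in vehicle and the macrophage markers to 903 CPM in SCDi and 2035 CPM in vehicle. At the gate's edge lay 0% of SCDi and 23.8% of vehicle cells. The part of these gaps in the Gsr levels was not tested. By S100a8, which was at most 0.148% of its neutrophil level in the types with ratios, RNA from neutrophils would give at most 1.94 CPM of Gsr. Ly6c2, which lymphoid and plasmacytoid cells also express, stood in B cells at 14.3% of its monocyte level in SCDi and 27.7% in vehicle, in NK cells at 26.8% in SCDi and 32.9% in vehicle. In T cells it stood at 38.2% in SCDi and 31.0% in vehicle, in type 2 dendritic cells at 37.8% in SCDi and 50.5% in vehicle and in macrophages at 25.7% in SCDi and 34.0% in vehicle. The monocyte level itself was 1933 CPM in SCDi and 1303 CPM in vehicle. In CPM Ly6c2 was higher in SCDi than in vehicle macrophages (497 against 443) and type 2 dendritic cells (731 against 658). It was also higher in SCDi NK (518 against 429) and T cells (738 against 404), and lower in SCDi B cells (276 against 361). Were all of it monocyte RNA, it would bring more Gsr than was measured, for instance 69.2 CPM in SCDi and 169 CPM in vehicle B cells, which had 18.6 CPM in SCDi and 63.6 CPM in vehicle. The part of monocyte RNA in the lower Gsr of these types was not tested. In tumour cells the same gene had a ratio of -0.06, and the median of chromosome 8 in leukocytes was -0.07 to 0.06.

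In macrophages all 9 members at 5 CPM were lower in SCDi, 4 of them past 1.2-fold, where 15.2% of all 9322 genes were past it lower and 9.57% higher, and 48.5% were higher by any amount. Gclc had 17.7 CPM in SCDi and 25.2 CPM in vehicle macrophages (-0.51, -0.70 to -0.33), and Gsr is given above. For Gclc 1 vehicle cell held 8.12% of the UMIs, and under other processing settings the ratio lay from -0.54 to -0.37. Hmox1 had 5347 UMIs (215 CPM) in SCDi and 6066 UMIs (282 CPM) in vehicle macrophages (-0.39, -0.45 to -0.34), although 1 SCDi cell held 828 of these UMIs, and without the highest cell of each library the ratio was -0.56. Txnrd1 had 72.0 CPM in SCDi and 91.6 CPM in vehicle macrophages (-0.35, -0.44 to -0.25). Nfe2l2 had 203 CPM in SCDi and 226 CPM in vehicle (-0.16), and Srxn1 was at -0.20 (-0.40 to -0.01). Osgin1 (-0.16, -0.51 to 0.19) and Gclm (-0.10, -0.28 to 0.08) had intervals that included 0. Osgin1 reached 0.02 under other processing settings, and 1 SCDi cell held 11.3% of the Gclm UMIs. Prdx1, at 896 CPM in SCDi and 924 CPM in vehicle, was nearly level (-0.04). In tumour cells Gclc, Txnrd1 and Hmox1 were higher in SCDi, each within 1.2-fold, so the direction in macrophages was opposite. Txnrd1 was near level in tumour cells (0.06).

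Monocyte-macrophages had 7 of 9 members lower, where 46.3% of all genes were higher, and 4 past 1.2-fold, where 12.2% of all genes were: Gsr, Txnrd1 (82.3 CPM in SCDi and 104 CPM in vehicle, -0.34), Hmox1 (207 CPM in SCDi and 258 CPM in vehicle, -0.32) and Gclm (17.8 CPM in SCDi and 22.0 CPM in vehicle, -0.30). Srxn1 (0.17, 0.01 to 0.34) and Prdx1 (0.12, 0.09 to 0.14) were higher, neither past 1.2-fold, where 5.80% of all genes were. Nfe2l2 (215 CPM in SCDi and 223 CPM in vehicle, -0.05), Gclc (-0.01) and Osgin1 (-0.05) were near equality, and Nqo1 had 5 UMIs in SCDi and 3 in vehicle. With 1 more marker needed in each gate, Hmox1 was at -0.11, and with CPM averaged over cells Gclm was at -0.22 and Hmox1 at -0.25, each within 1.2-fold. Monocytes had 4 members higher and 4 lower, with only Gsr past 1.2-fold lower (14.3% of all genes) and none past it higher (9.21%). Nfe2l2 was at 0.07, Gclc at 0.20, Srxn1 at 0.04, Prdx1 at 0.08 (702 CPM in SCDi and 664 CPM in vehicle), Txnrd1 at -0.20 (121 CPM in SCDi and 139 CPM in vehicle) and Gclm at -0.22, which was -0.03 in cells with Ly6c2. Osgin1 had 36 UMIs in SCDi and 29 in vehicle and Nqo1 2 UMIs in SCDi and 1 in vehicle. Their Hmox1, at 142 CPM in SCDi and 169 CPM in vehicle (-0.25), rested on a few cells: the monocytes with Ly6c2, 94.9% of the gate in SCDi and 93.8% in vehicle, had 147 CPM in SCDi and 149 CPM in vehicle (-0.02, -0.11 to 0.08). In monocyte-macrophages with Ly6c2 the Hmox1 ratio was -0.34.

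Tumour RNA in the immune sort, as read from Krt8, was 0.305% of macrophage UMIs in SCDi and 0.119% in vehicle and at most 0.336% in any type. Macrophage markers summed to 24748 CPM in SCDi and 25655 CPM in vehicle macrophages, with none of 8 at 0, and monocyte markers to 893 CPM in SCDi and 930 CPM in vehicle. The 8 hypoxia genes summed to 168 CPM in SCDi and 250 CPM in vehicle macrophages. In monocyte-macrophages the macrophage markers summed to 11431 CPM in SCDi and 13876 CPM in vehicle. The part of these gaps in the members' ratios was not tested. Fewer cells of a kind within a gate and less RNA per cell cannot be told apart in these sums.

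**Figure D5:**
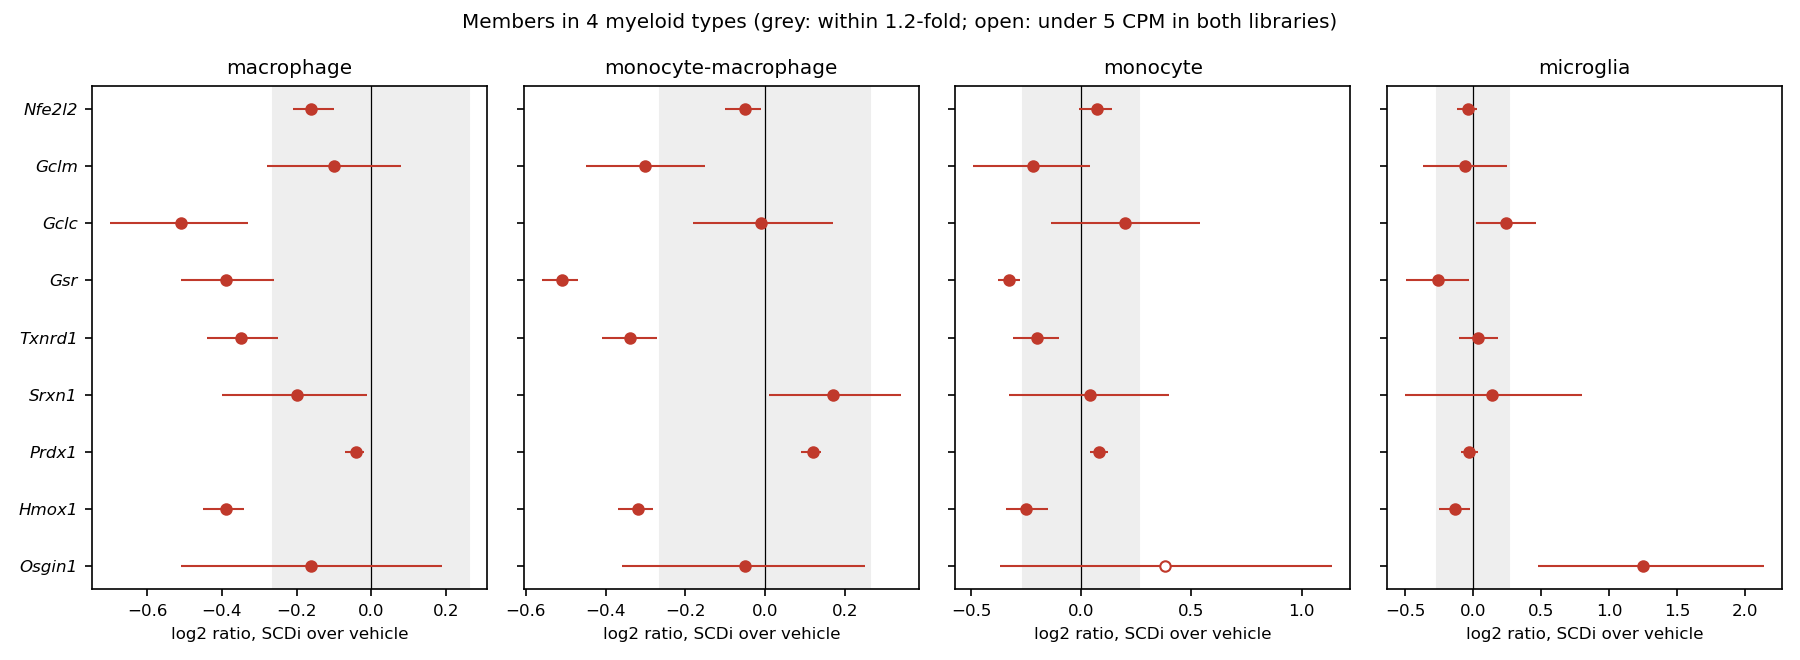
Log2 ratio of CPM, SCDi over vehicle, of 9 members in macrophages, monocyte-macrophages, monocytes and microglia, with exact 95% counting intervals and the 1.2-fold band in grey; the open point is under 5 CPM in both libraries, and each panel has its own scale. Gsr lies under 0 in the 4 panels, from -0.51 in monocyte-macrophages to -0.26 in microglia, and Hmox1 does too, while Prdx1 stays between -0.04 and 0.12.

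Microglia, the resident macrophages of the brain, had 4 members higher and 5 lower, and only Osgin1 passed 1.2-fold, higher in SCDi, where 9.65% of all genes were past it higher and 12.5% lower: 51 UMIs in SCDi and 18 UMIs in vehicle, from 31 of 408 SCDi and 13 of 308 vehicle cells (1.25, 0.48 to 2.14). Osgin1 reached 5 CPM only in SCDi (5.43 CPM, against 2.24 CPM in vehicle), so the filter itself favoured a higher call. For Osgin1 1 cell held 17.6% of the UMIs in SCDi and 1 cell 22.2% in vehicle. Nfe2l2 had 340 CPM in SCDi and 350 CPM in vehicle microglia (-0.04), and Gclc 43.7 CPM in SCDi and 36.9 CPM in vehicle (0.24, 0.02 to 0.46). Gclm (-0.06), Txnrd1 (0.04), Srxn1 (0.14, 49 UMIs in SCDi and 38 in vehicle) and Prdx1 (-0.03) had intervals that included 0, and Nqo1 had 3 UMIs in SCDi and 2 in vehicle. Hmox1 had 142 CPM in SCDi and 156 CPM in vehicle (-0.13), of which 1 cell held 33.9% in SCDi and 1 cell 25.2% in vehicle, and without those cells it was at -0.31, while without doublet removal it was at 0.29. Microglia and monocyte markers summed to 3613 and 210 CPM in SCDi microglia and to 3000 and 398 CPM in vehicle microglia. The part of these differences in the ratios was not tested.

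Among dendritic cells, which present antigen, type 2 cells had 6 of 7 members lower, where 57.3% of all genes were higher, and 3 past 1.2-fold (16.0% of all genes): Gclc on 44 UMIs in SCDi and 85 in vehicle (-0.80), Gsr (-0.60) and Txnrd1 (-0.28). Gclm was past it higher on 46 UMIs in SCDi and 34 in vehicle (0.57), with an interval that included 0 and where 27.2% of all genes were past it higher. Migratory cells had Srxn1 lower on 37 UMIs in SCDi and 106 in vehicle (-0.72, 22.0% of all genes past 1.2-fold lower) and Gclm past it higher (0.38, -0.09 to 0.83, 14.5% of all genes). Plasmacytoid cells had 3 members past 1.2-fold lower (25.5% of all genes) and Hmox1 past it higher on 14 UMIs in each library (23.4%), and only Gclc (-0.76, 24 UMIs in SCDi and 50 in vehicle) had an interval without 0.

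T cells had 2 members past 1.2-fold higher (21.3% of all genes) and 1 lower (21.2%). Txnrd1 had 71.1 CPM in SCDi and 55.1 CPM in vehicle T cells (0.37), and Prdx1 496 CPM in SCDi and 394 CPM in vehicle (0.33, 0.24 to 0.42). With CPM averaged over cells these ratios were 0.12 and 0.09. The T cell markers summed to 3106 CPM in SCDi and 3959 CPM in vehicle T cells and the monocyte markers to 1666 CPM in SCDi and 1287 CPM in vehicle. The part of these gaps was not tested. NK cells had Prdx1 at 325 CPM in SCDi and 261 CPM in vehicle (0.31) among 2 members past it higher (26.2%) and 3 lower (23.5%). With CPM averaged over cells Prdx1 was at 0.21, and without the cell with most UMIs at 0.23. The other, Nfe2l2 (0.42), was at -0.07 and at 0.24 in the same alternatives. B cells had 4 of 7 members past it lower (33.6%) and 2 higher (23.5%), on small counts: Hmox1 with 8 UMIs in SCDi and 44 in vehicle (-2.10), Nfe2l2 with 29 UMIs in SCDi and 76 in vehicle (-1.08) and Gsr as above. In B cells the monocyte markers summed to 1713 CPM in SCDi and 2277 CPM in vehicle and the macrophage markers to 1035 CPM in SCDi and 1352 CPM in vehicle. Their part in these ratios was not tested. With 7 to 9 members counted in each lymphoid type, such counts lie within a few members of the share of all genes past 1.2-fold.

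The wider pathway was described by 6 lists of 85 genes without the 10 members: regulators, glutathione, thioredoxin and peroxide, NADPH supply, detoxification, and haem and iron. In tumour cells 64 of the 85 reached 5 CPM, 36 were higher and 28 lower in SCDi, 3 past 1.2-fold higher and 6 lower, and their median was 0.01. The counts past 1.2-fold are close to all genes, of which 5.81% were past it higher and 10.7% lower. Of all genes 41.8% were higher by any amount, with a median of -0.04. The genes named are those at 5 CPM. Among the regulators Keap1 had 52.6 CPM in SCDi and 50.9 CPM in vehicle tumour cells (0.05) and the small MAF gene Mafk 0.05, while Maff had 10.0 CPM in SCDi and 13.1 CPM in vehicle (-0.38) and Btrc, a ubiquitin ligase adaptor, was at -0.25. Among the genes of the glutathione list at 5 CPM Chac1, a glutathione-degrading enzyme (0.36), and Gstp1 (0.24) stood highest, and Mgst2 (-0.25) and the exporter Abcc1 (-0.24) lowest. Chac1 reached 5 CPM only in SCDi (6.27 CPM, against 4.88 CPM in vehicle), so the filter favoured a higher value for it. The cystine importer Slc7a11, at 86.7 CPM in SCDi and 92.4 CPM in vehicle, was at -0.09. No gene of the thioredoxin and peroxide list passed 1.2-fold, from Txn2 and Sod2 (0.17) to Txnip (-0.09) and Cat (-0.07).

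Of the NADPH genes, Idh1, the cytosolic isocitrate dehydrogenase, had 12.7 CPM in SCDi and 8.50 CPM in vehicle tumour cells (0.58, 0.50 to 0.65), and malic enzyme Me1 followed (0.21). The glucose transporter Slc2a1, which is also 1 of the 8 hypoxia genes, had 110 CPM in SCDi and 163 CPM in vehicle tumour cells (-0.57, -0.59 to -0.55), and Taldo1 was at -0.15. In the detoxification list Ptgr1 (0.22) and Nqo2 (0.19) stood highest, and the aldo-keto reductases Akr1b8, with 115 CPM in SCDi and 183 CPM in vehicle (-0.66), and Akr1b10 (-0.30) lowest. These 2 genes are close relatives whose reads can be hard to tell apart. In the haem and iron list Blvrb, a biliverdin reductase (0.32), and the ferritin light chain Ftl1 (0.19) stood highest, and the transferrin receptor Tfrc (-0.30) and the haem synthesis enzyme Alas1 (-0.21) lowest.

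In macrophages 67 of the 85 genes reached 5 CPM, 38 were higher and 29 lower in SCDi, 9 past 1.2-fold higher and 10 lower, with a median of 0.08, where 9.57% of all genes were past it higher and 15.2% lower, 48.5% were higher by any amount and the median was -0.01. Past 1.5-fold lower were Bach2, a repressor related to BACH1, with 17.0 CPM in SCDi and 34.4 CPM in vehicle macrophages (-1.02, -1.19 to -0.84), Slc7a11 with 56.5 CPM in SCDi and 94.3 CPM in vehicle (-0.74), Abcc1 (-0.66) and Slc2a1 (-0.62). Past 1.5-fold higher were the glutathione transferases Gstp1, with 276 UMIs (11.1 CPM) in SCDi and 98 UMIs (4.56 CPM) in vehicle macrophages (1.28, 0.95 to 1.63), and Gstt1 (0.74). In macrophages Gstp1 reached 5 CPM only in SCDi, so the filter itself favoured a higher call. Gstp1 was also higher in SCDi monocyte-macrophages (1.22) and monocytes (0.93). Gstp2 is a near-identical neighbour, so the count of Gstp1 is uncertain. The detoxification genes had 9 of 10 members higher and a median of 0.16 in macrophages, and the regulators 7 of 10 lower and a median of -0.16.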

How the data were processed

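The deposited matrices, 1 per library, give whole-number UMI counts for each gene and cell barcode, not normalized by the authors. Per the submitters' processing notes, Cell Ranger 7.1.0 and mm10 were used; no barcode in the files had under 500 UMIs. Whether intronic reads were counted is not given in the sources used here. Barcode and gene files only name the rows and columns. The 10 members, the marker lists and the 6 wider lists were chosen with earlier results of these data known.

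Barcodes with fewer than 300 genes or over 15% mitochondrial UMIs were left out. Scrublet, run through scanpy 1.11.5, failed with its automatic threshold (at most 0.0310% marked, under 0.5%), so the highest scores were removed at 0.8% per 1000 barcodes, which left 6120 SCDi immune, 6572 vehicle immune, 8262 SCDi tumour and 7009 vehicle tumour cells. Leukocyte gates needed 3 to 6 markers of a list; how many was set after seeing the data. Cells that met 2 gates, or a lymphoid, dendritic or neutrophil gate with 6 macrophage markers, were left out as mixed (6.76% of SCDi and 6.68% of vehicle immune cells), and 7.39% of SCDi and 11.4% of vehicle immune cells stayed unnamed. Median UMIs per cell were 37010 in SCDi and 41894 in vehicle tumour cells.

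UMIs were summed per type and library, scaled to CPM, and compared as log2((SCDi + 0.5)/total) less the same for vehicle, with an exact conditional binomial 95% interval; levels have Poisson and shares Clopper-Pearson intervals. No ratio is given where both counts are 3 or fewer. No p-value was computed. The background is the share of genes at 5 CPM or more in either library past 1.2-fold. The text names all 10 members in tumour cells, macrophages, monocyte-macrophages, monocytes and microglia, the 2 highest and 2 lowest genes at 5 CPM of each wider list in tumour cells, the wider genes past 1.5-fold in macrophages and the 4 genes most like Nqo1, Hmox1 and Nfe2l2. 11 of 12 listed regulators matched a symbol. The split of tumour cells by Hmox1 and of monocytes by Ly6c2 was added after seeing the data. The calculation was tested on simulated data.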

Additional observations from a re-analysis of the deposited data

Results flagged for a closer look

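Some members had opposite directions in tumour cells and in a leukocyte type, each with a counting interval that excluded 0 and the leukocyte value past 1.2-fold. The difference between the 2 cell types was not tested, since each rests on 1 library per treatment. As log2 ratios of SCDi over vehicle, Gclm was at 0.34 in tumour cells and -0.30 in monocyte-macrophages (-0.22 with CPM averaged over cells, within 1.2-fold). Gclc was at 0.23 in tumour cells, -0.51 in macrophages, -0.80 in type 2 dendritic cells and -0.76 in plasmacytoid dendritic cells. Txnrd1 was near level in tumour cells (0.06, and -0.08 in hypoxia-low tumour cells). It was at -0.35 in macrophages, -0.34 in monocyte-macrophages and -0.28 in type 2 dendritic cells. Hmox1 was at 0.15 in tumour cells, -0.39 in macrophages, -0.32 in monocyte-macrophages and -2.10 in B cells. Nfe2l2 was near level in tumour cells (0.05) and at -1.08 in B cells, where its count was 29 UMIs in SCDi and 76 in vehicle.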

How the results depend on the processing

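No paired analysis was possible because each group is 1 library, and for the same reason no replicate could be left out. In tumour cells the count of members past 1.2-fold higher was 1 and became 2 with CPM averaged over cells, less the chromosome median, within chromosome 8 share and within hypoxia markers, and 3 in cells without Mki67 or Top2a, where Gclm itself was at 0.25; less the chromosome median, 1 member was lower in place of 3. Across these alternatives Gclm ranged from 0.25 to 0.39 and Hmox1 from 0.04 to 0.44. In leukocytes the 24 pairs of member and type past 1.2-fold lower and the 10 higher stayed within 1.5 times of these counts. Each type had 7 to 9 members counted. Depending on the type, 12.2% to 33.6% of all genes were past 1.2-fold lower and 5.80% to 27.2% higher. Gsr ranged from -0.39 to -0.31 in macrophages, from -0.55 to -0.40 in monocyte-macrophages and from -0.33 to -0.29 in monocytes. Txnrd1 in B cells went to 0.00 without doublet removal (main -0.31), and Nfe2l2 in NK cells to -0.07 with CPM averaged over cells (main 0.42); the cause was not tested. Of the wider lists, tumour cells had 3 genes higher and 6 lower, against 1 higher at 20 CPM, 11 and 10 with no filter on low values, and 0 and 1 at 1.5-fold; macrophages had 9 higher and 10 lower, against 5 higher at 20 CPM, 18 lower with no filter, and 2 and 4 at 1.5-fold. A larger share of tumour cells than of macrophages showed 7 of the members in SCDi and 6 in vehicle after thinning, and thinning to 1000 or 5000 UMIs kept these counts within 1.5 times. B, NK and dendritic cells rest on few UMIs per member, which limits what their ratios can show; Gsr in B cells went to -0.61 and Hmox1 in microglia to 0.29 without doublet removal.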
